A study of Mus musculus with 9 samples.

Results

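A set of 10 genes that make, break down or sense prostaglandins was followed in cultured mouse embryonic fibroblasts (MEFs), the collagen-making cells of embryonic connective tissue. They were chosen by name, by their place in the pathway, and all 10 were among the 22068 genes of the deposited count table and among the 10100 genes that could be tested. The cells were primary C57Bl/6 MEFs at passage 2. They were electroporated with a plasmid that carried a puromycin resistance gene and in addition V5-tagged opossum *CRX* (metatherian CRX) or V5-tagged human *CRX* (eutherian CRX), while the control plasmid had the resistance gene alone. All 9 libraries, 3 for each condition, came from cells kept in puromycin for 5 days, so the control shared the electroporation and the drug with both CRX conditions. The promoter that drove *CRX* is not given in the sources used here, and each library came from a mixed population of resistant cells. CRX is a homeodomain transcription factor, known in eutherian mammals for its role in the retina. The design asks how MEFs respond to the metatherian and to the eutherian protein.

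Prostaglandins are short-lived lipid signals. A phospholipase frees arachidonic acid from membranes, a cyclooxygenase turns it into prostaglandin H, and a terminal synthase converts that into prostaglandin E, prostacyclin or another product. Secreted prostaglandins act on G protein-coupled receptors of the same or of nearby cells until a dehydrogenase inactivates them. In fibroblasts the pathway is best known from inflammation and wound repair, where the inducible cyclooxygenase COX-2 makes prostaglandin E.

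The libraries held 54145701 to 94699657 counts. Reads on the mouse gene *Crx*, which the human plasmid sequence can also give, numbered 627, 995 and 313 in eutherian CRX replicates 1 to 3, 0 in each control library, and 4, 0 and 0 in metatherian CRX, where the opossum sequence was not counted. All 8 fibroblast markers looked at were above 1 CPM (a read count scaled to a common library size) in every condition, with a summed level of 24705 to 32741 CPM in control, 7744 to 23017 in eutherian CRX and 8369 to 18130 in metatherian CRX. Leukocyte markers summed to 14.3 to 43.9 CPM in control, 8.49 to 25.3 in eutherian CRX and 6.81 to 13.5 in metatherian CRX, and smooth muscle markers to 2381 to 4202, 292 to 1707 and 561 to 1109 CPM. The fibroblast and smooth muscle sums of both CRX conditions and the leukocyte sums of metatherian CRX did not overlap with control. Their part in the results was not tested. Among the fibroblast markers *Pdgfra* went the other way, with means of 235, 277 and 348 CPM in control, eutherian and metatherian CRX. Endothelial and epithelial markers summed to at most 18.6 and 0.978 CPM. Libraries numbered 3 stood apart from numbers 1 and 2 in every condition, and eutherian CRX replicate 3 did so most: the standard deviation of log2 differences across genes was 0.15 between eutherian CRX replicates 1 and 2, and 0.85 and 0.89 between them and replicate 3. That library also had the lowest fibroblast sum (7744 CPM) and the lowest smooth muscle marker sum (292 CPM). For the members whose values it moved, values without this library are given too. The labels do not say that the replicates came from separate cultures, so the p-values measure the spread between these samples, which may be technical. In bulk RNA, fewer cells of a type and less RNA per cell cannot be told apart.

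The genes lie on 6 chromosomes of the mouse genome (mm10, GRCm38). *Pla2g4a* (chr1:149829618-149961284, minus strand) and *Ptgs2* (chr1:150100124-150108017, plus strand) are neighbours that point away from each other across 138839 bases, in which no protein-coding gene is annotated. *Ptgs1* (chr2:36216743-36252275, plus), *Ptges* (chr2:30889471-30903297, minus), *Ptges2* (chr2:32395890-32402740, plus) and *Ptgis* (chr2:167203194-167252127, minus) share chromosome 2. *Ptges3* lies at chr10:128058982-128077254 (plus), *Hpgd* at chr8:56294552-56321046 (plus), *Ptger4* at chr15:5233399-5244187 (minus) and *Ptgfr* at chr3:151798610-151837528 (minus). The strand option of the counting is not given in the sources used here. Of the exon bases of *Ptgs1*, 15% overlap a non-coding gene on the same strand and 2.95% an unclassified gene on the opposite strand, and of those of *Ptgfr* 5.14% overlap an unclassified gene on the opposite strand, so part of their reads could belong to these neighbours.

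The 250 bases before the start of transcription are shown for 4 genes: *Ptgs2* and *Pla2g4a*, the neighbours with the highest length-corrected levels, *Ptger4*, the receptor that passed the test in eutherian CRX, and *Hpgd*, whose level varied most between libraries. The sequences are RefSeq's on GRCm38.p6, written 5′ to 3′ on the strand of the gene.
*Pla2g4a* (chr1:149961291-149961540, minus): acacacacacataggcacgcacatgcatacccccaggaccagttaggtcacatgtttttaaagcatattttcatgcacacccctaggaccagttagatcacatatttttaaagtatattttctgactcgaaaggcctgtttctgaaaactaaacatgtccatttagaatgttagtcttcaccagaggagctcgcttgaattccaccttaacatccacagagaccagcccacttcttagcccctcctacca
*Ptgs2* (chr1:150099781-150100030, plus; the 8 capitals mark a match to the C/EBP motif): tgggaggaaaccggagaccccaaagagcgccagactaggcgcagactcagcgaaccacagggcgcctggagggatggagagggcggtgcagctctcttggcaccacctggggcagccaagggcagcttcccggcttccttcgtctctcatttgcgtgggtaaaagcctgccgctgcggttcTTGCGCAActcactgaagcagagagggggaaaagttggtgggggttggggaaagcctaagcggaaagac
*Hpgd* (chr8:56294302-56294551, plus): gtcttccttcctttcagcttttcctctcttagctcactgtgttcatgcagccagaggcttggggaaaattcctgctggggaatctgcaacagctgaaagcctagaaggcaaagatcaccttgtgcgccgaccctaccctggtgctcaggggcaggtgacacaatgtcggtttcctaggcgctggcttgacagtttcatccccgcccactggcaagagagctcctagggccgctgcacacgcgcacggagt
*Ptger4* (chr15:5244188-5244437, minus): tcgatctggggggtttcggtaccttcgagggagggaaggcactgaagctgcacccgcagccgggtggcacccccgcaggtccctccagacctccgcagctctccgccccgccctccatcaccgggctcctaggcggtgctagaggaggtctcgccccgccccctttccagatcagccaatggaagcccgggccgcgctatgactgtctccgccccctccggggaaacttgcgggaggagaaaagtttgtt
The RefSeq start of *Ptgs2* used here is 93 bases before the start in the count table. The bases between these starts were not searched, so the matches counted below do not cover them. Windows were found for 9 of the 10 genes, 10 windows in all since *Pla2g4a* had 2 starts. The *Ptgs1* window belongs to a start 13683 bases from that of the count table and is not shown. Each window was searched on both strands. TAATCC, a core that CRX prefers, was in 0 of the 10 windows, and 6.25% of all 32851 promoter windows of this length held it. TGACG, part of a cyclic AMP response element, was in 0 of 10, against 17.8% of all windows. CACGTG, an E-box, was in that of *Ptges2* (6.02% of all), and TATAAA in the window of the second *Pla2g4a* start (12.4%). TTGCNNAA, the C/EBP motif, was searched for after the sequences had been seen, and was in the window of *Ptgs2* alone (9.56% of all), starting 69 bases before the start. These matches describe the letters of these windows, which end at the start of transcription, and say nothing about binding.

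Levels of different genes were compared as FPKM (counts scaled to library size and exon length). *Ptgs2*, which encodes COX-2, had the highest mean in all 3 conditions, at 61.6 ± 14.7 FPKM in control, 56.5 ± 38.5 in eutherian CRX and 107 ± 15.9 in metatherian CRX (SD, n = 3). *Pla2g4a*, which encodes cytosolic phospholipase A2, the enzyme that frees arachidonic acid, came next at 50.9 ± 5.00, 54.2 ± 6.68 and 75.3 ± 8.12 FPKM. In control and eutherian CRX these first 2 ranks were not separated, since the ranges of *Ptgs2* and *Pla2g4a* overlapped, whereas in metatherian CRX every *Ptgs2* value (93.8 to 124 FPKM) was above every *Pla2g4a* value (66.3 to 82.1 FPKM). *Ptges3* and *Ptges2*, which encode the cytosolic and the membrane-associated prostaglandin E synthases that most cells carry, held the middle, with means of 12.3 to 16.9 FPKM. *Ptges*, the inducible microsomal synthase, was at means of 8.52 to 14.3 FPKM, and *Ptgis*, prostacyclin synthase, at 5.37 to 8.46 FPKM. The 2 receptors came last in each condition, *Ptger4* (EP4, a receptor for prostaglandin E) at 1.59 to 3.53 FPKM and *Ptgfr* (the receptor for prostaglandin F) at no more than 2.23 FPKM. Against all 10100 genes tested, the control mean of *Ptgs2* was above that of 91.1% and that of *Ptgfr* above that of 4.69%. The middle of the order was not separated: *Hpgd*, 15-hydroxyprostaglandin dehydrogenase, which inactivates prostaglandins, ranged from 2.18 to 30.2 FPKM within control alone, and that range spans the control means of 7 of the other members.

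**Figure D1:**
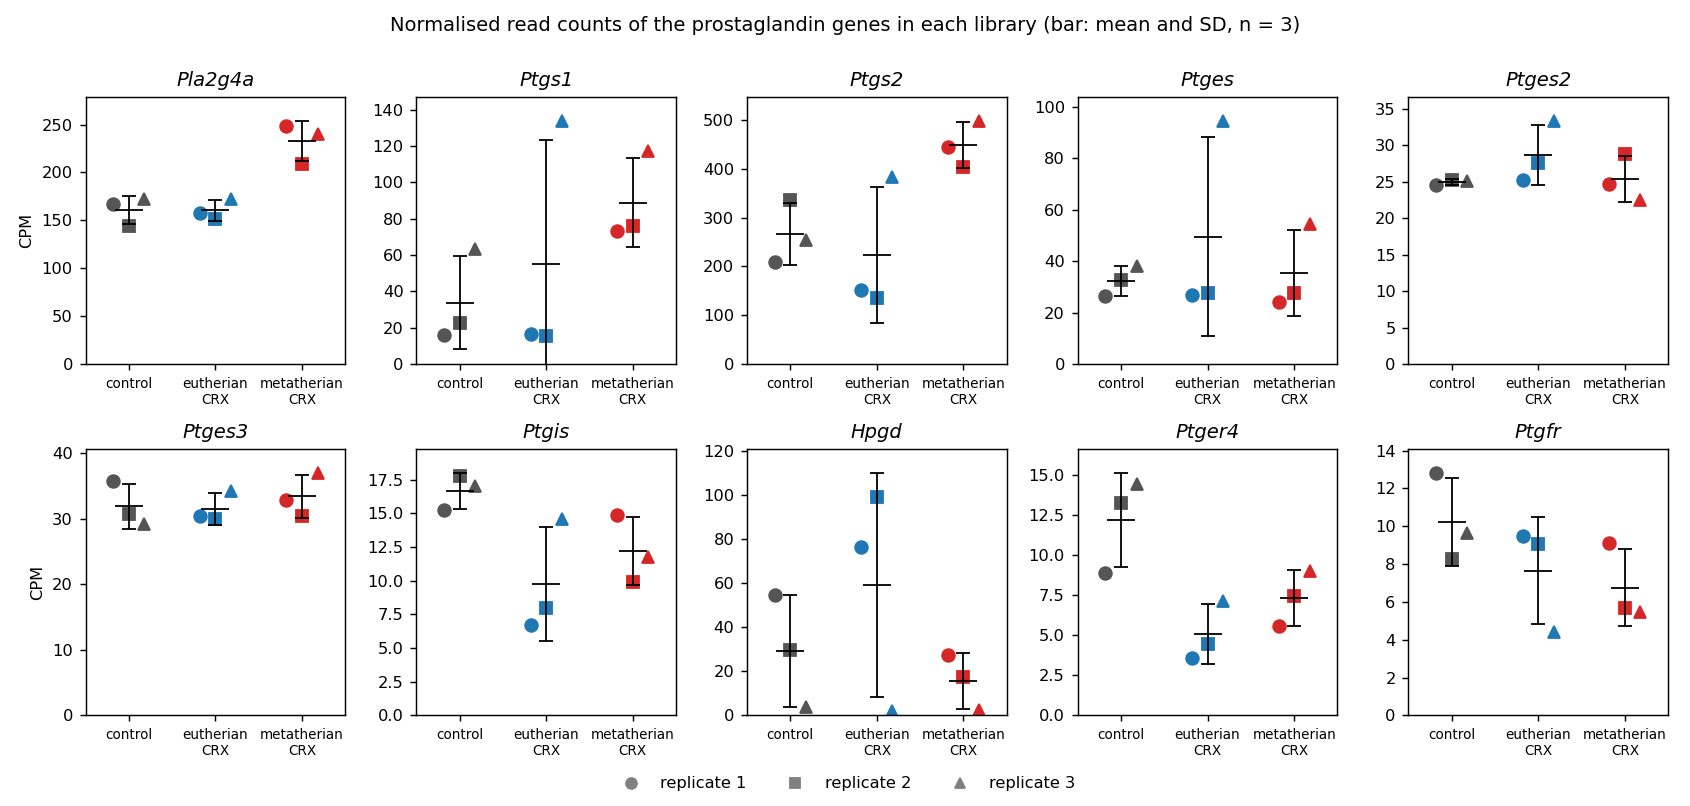
Normalised read counts (CPM, y axis from 0) of the 10 genes in each of the 9 libraries. Marker shapes give the replicate number, and the bars the mean and SD (n = 3), which are cut at 0 for *Ptgs1* in eutherian CRX. The 3 metatherian CRX points of *Pla2g4a* lie above all others, and the triangles, replicate 3, lie lowest for *Hpgd* in every condition.

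Differences between conditions were tested with edgeR's quasi-likelihood test on the counts, blocked by replicate number, and p-values were adjusted over all 10100 genes. Values per library are in CPM, scaled with TMM factors. Of the 10 members, 0 passed an adjusted p of 0.05 in metatherian CRX against control, where 0.0297% of all genes did. In eutherian CRX against control 1 member passed, *Ptger4*, where 0.604% of all genes did and 0.584% did so as lower. Between metatherian and eutherian CRX 0 members and 0% of all genes passed. DESeq2 with the same block called 3, 1 and 4 members in these comparisons, where it called 1004, 333 and 317 of the 10100 genes. Against control these were *Pla2g4a*, *Ptgs1* and *Ptger4* in metatherian CRX and *Ptger4* in eutherian CRX. Between the CRX conditions they were *Pla2g4a*, *Ptgs1*, *Ptgs2* and *Hpgd*. limma voom with quality weights called 6, 5 and 6 members, where it called 4665, 1697 and 4883 genes. In metatherian CRX against control its calls were *Pla2g4a*, *Ptgs1*, *Ptgs2*, *Hpgd*, *Ptger4* and *Ptgfr*. In eutherian CRX against control they were *Ptgs2*, *Ptgis*, *Hpgd*, *Ptger4* and *Ptgfr*. Between the CRX conditions they were *Pla2g4a*, *Ptgs1*, *Ptgs2*, *Ptgis*, *Hpgd* and *Ptger4*. At an unadjusted p under 0.05 in the same edgeR fit, 4 members were past the threshold in metatherian CRX against control (*Pla2g4a* and *Ptgs1* higher, *Ptger4* and *Ptgfr* lower; of all genes 9.04% higher and 10.5% lower, 19.5% in all), 2 in eutherian CRX against control (*Ptger4* and *Ptgis*, both lower; of all genes 2.23% higher and 6.34% lower, 8.56% in all) and 5 in metatherian against eutherian CRX (*Pla2g4a*, *Ptgs1*, *Ptgs2* and *Ptger4* higher, *Hpgd* lower; of all genes 7.41% higher and 4.13% lower, 11.5% in all). The libraries of the conditions did not overlap for 4 members in metatherian CRX against control (*Pla2g4a*, *Ptgs1* and *Ptgs2* higher, *Ptgis* lower; of all genes 11% higher and 12.3% lower, 23.3% in all), for 2 in eutherian CRX against control (*Ptger4* and *Ptgis*, both lower; 6.21% and 7.8%, 14% in all) and for 2 in metatherian against eutherian CRX (*Pla2g4a* and *Ptgs2*, both higher; 6.23% and 5.3%, 11.5% in all). *Ptgfr* entered the test only through control, the condition where it was highest, since a mean over 2 FPKM in some condition was required, so it could be tested as lower more readily than as higher and its count as lower is no support. The median log2 fold change of the members was 0.01, -0.01 and 0.23 in these comparisons, against -0.01, 0.00 and -0.01 over all genes tested. Both comparisons with control share the 3 control libraries.

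**Figure D2:**
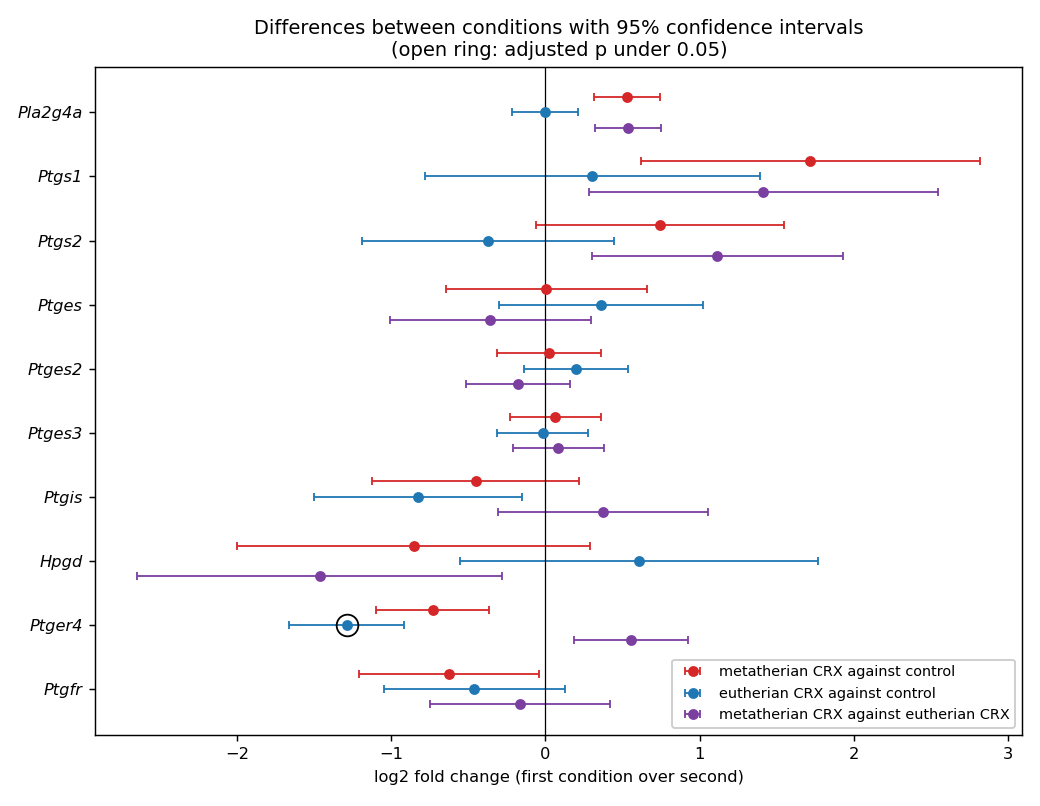
Log2 fold changes of the 10 genes (x axis) with 95% confidence intervals in the 3 comparisons. The interval of *Ptger4* in eutherian CRX against control, from -1.66 to -0.91, carries the ring that marks an adjusted p under 0.05, and the intervals of *Pla2g4a* lie above 0 in both comparisons that involve metatherian CRX.

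*Pla2g4a* had the smallest standard error of the 10 genes in each comparison. In control it was at 167, 144 and 172 CPM in replicates 1 to 3, in eutherian CRX at 158, 151 and 172 CPM, and in metatherian CRX at 248, 209 and 240 CPM. The metatherian libraries did not overlap with either of the other conditions, and control and eutherian CRX lay on top of each other. The log2 fold change was 0.53 ± 0.09 (SE) against control, with an edgeR adjusted p of 0.072, and 0.53 ± 0.09 against eutherian CRX, with an adjusted p of 0.24. In both it was higher in metatherian CRX for 3 of 3 replicate numbers. Eutherian CRX against control gave a log2 fold change of 0.00 with a 95% interval of -0.22 to 0.21, so that a difference of the size seen with metatherian CRX lies outside it. Without eutherian CRX replicate 3 the 2 differences were 0.54 and 0.55, and the edgeR adjusted p-values 0.020 and 0.047, and the difference from control also passed without metatherian CRX replicate 3.

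*Ptgs1* and *Ptgs2* encode the cyclooxygenases COX-1, which most tissues carry all the time, and COX-2, which is induced by cytokines and growth factors. *Ptgs2* was at 209, 335 and 255 CPM in control, at 152, 136 and 383 CPM in eutherian CRX and at 444, 404 and 497 CPM in metatherian CRX. The 3 metatherian libraries were above all 6 others, and eutherian CRX replicate 3 was far above its own group. The log2 fold change of metatherian CRX was 0.74 ± 0.34 against control (edgeR adjusted p = 0.29) and 1.12 ± 0.34 against eutherian CRX (adjusted p = 0.33). Neither passed in edgeR. The difference from control was 0.48 without control replicate 3 and 1.15 without control replicate 2. For eutherian CRX against control it was -0.37 ± 0.34 (adjusted p = 0.85), and the replicate numbers disagreed, at -0.46, -1.30 and 0.59 on the log2 scale. Leaving out eutherian CRX replicate 3 gave 0.77 and 1.62 for metatherian CRX against control and eutherian CRX, with edgeR adjusted p-values of 0.059 and 0.025, so that the second was then past the threshold, and -0.85 for eutherian CRX against control (adjusted p = 0.30). The last was -0.0018 without control replicate 2, -0.030 without eutherian CRX replicate 2 and -0.70 without control replicate 3, so single libraries set its size.

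*Ptgs1* was at 15.9, 22.3 and 63.2 CPM in control, 16.4, 15.5 and 134 CPM in eutherian CRX and 73.3, 75.8 and 117 CPM in metatherian CRX. Metatherian CRX lay above control without overlap, but eutherian CRX replicate 3 was the highest of the 9 libraries. The log2 fold change of metatherian CRX against control was 1.72 ± 0.46 (edgeR adjusted p = 0.13), the largest of the 10 members in that comparison, and it was higher for 3 of 3 numbers (2.20, 1.76 and 0.89). Against eutherian CRX it was 1.41 ± 0.48 (adjusted p = 0.35), with 2.16, 2.28 and -0.19 for the 3 numbers. Eutherian CRX against control gave 0.31 ± 0.46 (adjusted p = 0.92). Without eutherian CRX replicate 3 the first 2 values were 1.62 and 2.06, with edgeR adjusted p-values of 0.016 and 0.023, and the third turned to -0.44 (adjusted p = 0.81). Without metatherian CRX replicate 3, the difference from control was 2.18 and also passed.

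COX-2 messenger RNA outweighed that of COX-1 in every library once length was taken into account. *Ptgs2* held 94.1%, 94.8% and 83.0% of the summed FPKM of both genes in control, 91.8%, 91.4% and 77.7% in eutherian CRX and 88.0%, 86.6% and 83.7% in metatherian CRX. The share was lowest in replicate 3 of each condition, where *Ptgs1* was high. Relative to the mean log2 level of replicates 1 and 2, *Ptgs1* in replicate 3 was 3.35-fold higher in control, 8.35-fold higher in eutherian CRX and 1.57-fold higher in metatherian CRX. The summed cyclooxygenase level was 50.9 to 81.4 FPKM in control and 108 to 149 FPKM in metatherian CRX, whereas eutherian CRX replicates 1 and 2 were at 39.3 and 35.6 FPKM and replicate 3 at 130 FPKM.

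**Figure D3:**
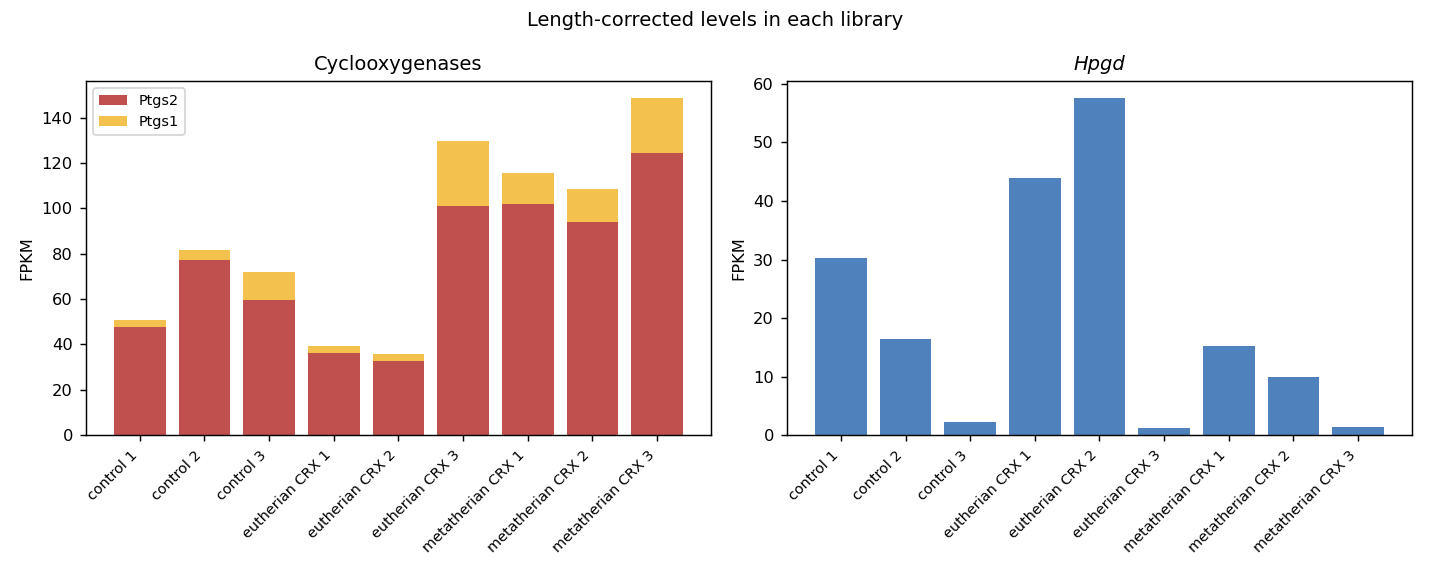
Length-corrected levels (FPKM, y axes from 0) in each library of the cyclooxygenase genes *Ptgs2* and *Ptgs1*, stacked, and of *Hpgd*. Eutherian CRX replicate 3, with a cyclooxygenase sum of 130 FPKM and *Hpgd* at 1.30 FPKM, is closer to metatherian CRX replicate 3 (149 and 1.38 FPKM) than to the other libraries of its own condition.

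*Hpgd* showed the widest spread. It was at 54.6, 29.7 and 3.85 CPM in control, 76.4, 99.5 and 2.05 CPM in eutherian CRX and 27.4, 17.6 and 2.28 CPM in metatherian CRX. Replicate 3 was the lowest in each condition, 10.4-fold below the mean log2 level of replicates 1 and 2 in control, 42.0-fold in eutherian CRX and 9.55-fold in metatherian CRX. These low values still rest on 266, 153 and 148 counts. Within a replicate number metatherian CRX was below control for 3 of 3 (-0.99, -0.75 and -0.75 on the log2 scale), although the groups overlapped, and the fitted log2 fold change was -0.85 ± 0.48 (edgeR adjusted p = 0.37). Eutherian CRX against control gave 0.61 ± 0.49 (adjusted p = 0.81), with 0.48, 1.74 and -0.90 for the 3 numbers. Metatherian against eutherian CRX gave -1.46 ± 0.50 (adjusted p = 0.36). Without eutherian CRX replicate 3 these were -0.84 (edgeR adjusted p = 0.094), 1.17 (adjusted p = 0.26) and -2.01 (adjusted p = 0.025), of which the last passed. Without eutherian CRX replicate 2 the eutherian difference from control was -0.08, so 1 library sets its sign, and metatherian against eutherian CRX was -0.75. Metatherian CRX against control was -0.55 without control replicate 3 and -1.21 without metatherian CRX replicate 3. In replicate 3 of each condition the low level of *Hpgd* went with a low fibroblast marker sum (24705, 7744 and 8369 CPM, the lowest of each condition), and the part of cell composition in it was not tested. The sum is carried by collagen genes and *Vim*. The 8 markers did not move alike: in replicate 3 of each condition *Col1a1*, *Col3a1*, *Vim* and *Pdgfrb* were lowest, *Pdgfra* and *Thy1* were highest, *Col1a2* was lowest in both CRX conditions only, and *Dcn* was lowest in control and eutherian CRX only.

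The prostaglandin E synthases passed in none of the 3 comparisons in edgeR. The cytosolic synthase gene *Ptges3* was at 29.2 to 37.0 CPM in all 9 libraries, and its log2 fold changes were 0.06, -0.02 and 0.08 for metatherian CRX against control, eutherian CRX against control and metatherian against eutherian CRX, with 95% intervals that reached no further than -0.31 and 0.38. *Ptges2* was at 22.5 to 33.3 CPM, with log2 fold changes of 0.02, 0.20 and -0.18 and intervals between -0.51 and 0.53. The last 2 were 0.045 and -0.021 when eutherian CRX replicate 3 was left out. *Ptges*, the inducible synthase often made together with COX-2, was at 26.3, 32.7 and 37.9 CPM in control, 26.9, 27.4 and 94.3 CPM in eutherian CRX and 23.9, 27.5 and 54.6 CPM in metatherian CRX. All groups overlapped, replicate 3 was the highest of each, and the log2 fold change of metatherian CRX against control was 0.00 ± 0.27 (edgeR adjusted p = 0.995). Eutherian CRX against control gave 0.36 ± 0.28 (adjusted p = 0.80), with 0.03, -0.25 and 1.31 for the 3 numbers, and metatherian against eutherian CRX gave -0.36 ± 0.27 (adjusted p = 0.67). These were 0.0087 and 0.044 without eutherian CRX replicate 3, and without control replicate 3 the eutherian difference was 0.010. The share of *Ptges* in the summed FPKM of the 3 prostaglandin E synthases was 19.0%, 23.9% and 27.2% in control, 20.6%, 20.4% and 42.8% in eutherian CRX and 18.3%, 19.9% and 32.9% in metatherian CRX, highest in replicate 3 of each.

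*Ptgis*, which makes prostacyclin, was at 15.2, 17.8 and 17.0 CPM in control, 6.68, 7.98 and 14.6 CPM in eutherian CRX and 14.9, 9.93 and 11.8 CPM in metatherian CRX. All 6 CRX libraries lay below the 3 control libraries, by little in eutherian CRX replicate 3 and metatherian CRX replicate 1. The log2 fold change was -0.83 ± 0.28 in eutherian CRX (edgeR adjusted p = 0.47) and -0.45 ± 0.28 in metatherian CRX (adjusted p = 0.42). Neither passed in edgeR. The eutherian value was -1.19 without eutherian CRX replicate 3 (edgeR adjusted p = 0.16). The metatherian value was -0.79 without metatherian CRX replicate 1, -0.27 without metatherian CRX replicate 3 and -0.26 without control replicate 2.

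Of the receptors, *Ptger4* fell in eutherian CRX. It was at 8.86, 13.3 and 14.4 CPM in control, 3.62, 4.46 and 7.16 CPM in eutherian CRX and 5.56, 7.44 and 9.03 CPM in metatherian CRX. The eutherian libraries did not overlap with control, and within each replicate number the order was control, then metatherian CRX, then eutherian CRX. The log2 fold change of eutherian CRX against control was -1.29 ± 0.16, a 2.44-fold lower level, with an edgeR adjusted p of 0.032, and it ranked 27 by p among the genes tested. Metatherian CRX against control gave -0.73 ± 0.16 (adjusted p = 0.097), lower for 3 of 3 numbers, though metatherian CRX replicate 3 overlapped with control replicate 1. The difference between the CRX proteins was 0.56 ± 0.16 (adjusted p = 0.31), and it was not shown that they differ. Without eutherian CRX replicate 3 the eutherian difference was -1.42, and its edgeR adjusted p of 0.061 missed the threshold, while that of metatherian CRX, at -0.72, passed with 0.027. Leaving out any other single library kept the eutherian value between -1.38 and -1.18, and it passed only without metatherian CRX replicate 3. The call was also lost in edgeR with no replicate block (adjusted p = 0.29) and with only the 6 libraries compared (adjusted p = 0.083).

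*Ptgfr* was at 12.8, 8.28 and 9.63 CPM in control, 9.51, 9.06 and 4.39 CPM in eutherian CRX and 9.14, 5.68 and 5.47 CPM in metatherian CRX. The groups overlapped, and metatherian CRX was below control for 3 of 3 replicate numbers. Only the control mean, 2.23 FPKM, was over the 2 FPKM that the test required. The log2 fold changes against control were -0.63 ± 0.25 in metatherian CRX (edgeR adjusted p = 0.23) and -0.46 ± 0.25 in eutherian CRX (adjusted p = 0.70), and in a fit without any filter -0.59 and -0.44. Single libraries moved the eutherian value, which was -0.19 when replicate 3 of eutherian CRX was left out, -0.76 when its replicate 2 was, and -0.25 when control replicate 3 was. The metatherian value was -0.40 without control replicate 3 and -0.79 without control replicate 2.

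**Figure D4:**
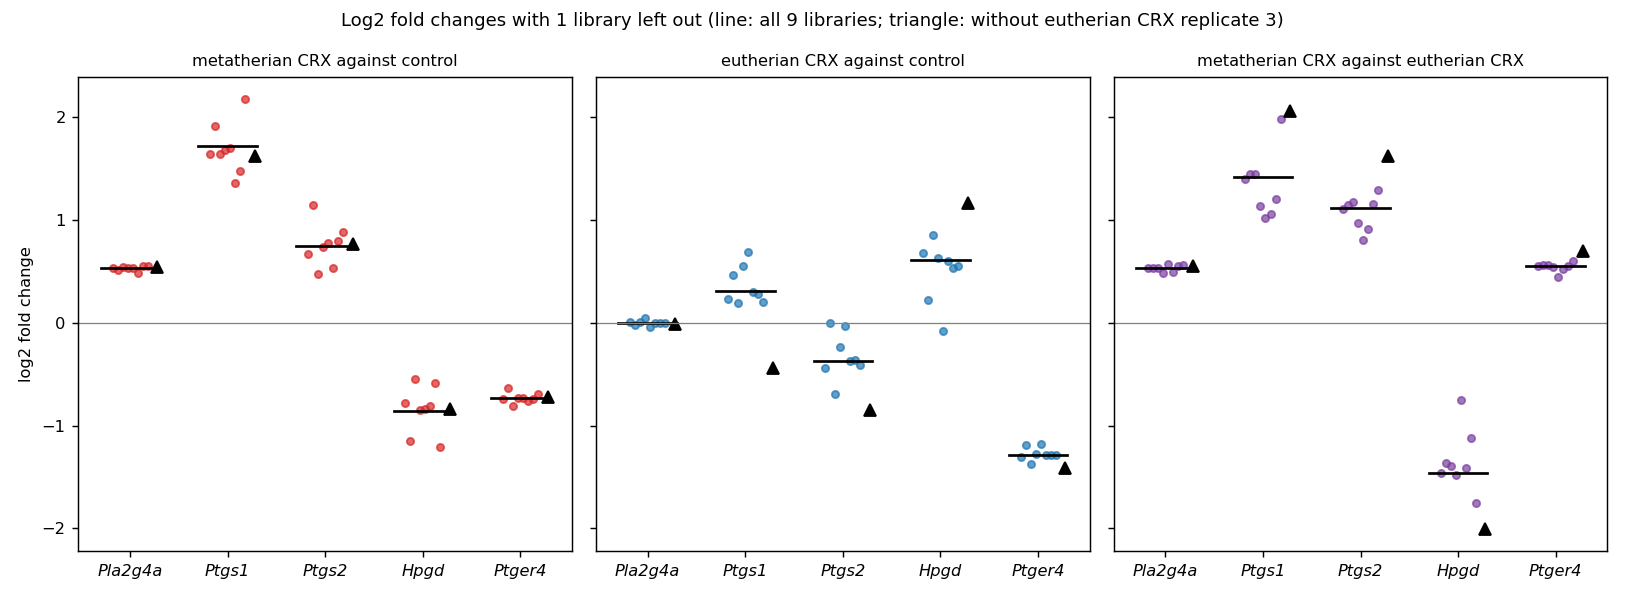
Log2 fold changes (y axis) of 5 genes when 1 library is left out in turn. The line gives the value with all 9 libraries and the triangle the value without eutherian CRX replicate 3, which for *Hpgd* in metatherian against eutherian CRX moves from -1.46 to -2.01 and for *Ptgs1* in eutherian CRX against control from 0.31 to -0.44.

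The other genes of the pathway were read from a list of 36, of which 20 could be tested. In metatherian CRX against control 9 of the 20 were higher and 11 lower, 0 passed the adjusted threshold, and 2 higher and 4 lower were past an unadjusted p of 0.05, as were 9.04% and 10.5% of all genes. Of the 4 lower genes, *Mgll* and *Tbxa2r* entered the test only through control, with means of 3.33 and 2.38 FPKM there against at most 1.41 and 0.322 FPKM in the CRX conditions, so their place among the lower genes was favoured by the filter. In eutherian CRX against control 8 were higher and 12 lower, 0 passed, and 1 higher and 2 lower, the same *Mgll* and *Tbxa2r*, were past the unadjusted threshold, as were 2.23% and 6.34% of all genes. The medians of their log2 fold changes were -0.06 and -0.03. *Acsl4*, which couples free arachidonic acid to coenzyme A, had means of 78.0 ± 6.83 CPM in control, 85.6 ± 16.7 in eutherian CRX and 118 ± 20.1 in metatherian CRX (SD, n = 3, as for all means below), and its log2 fold change in metatherian CRX was 0.59 ± 0.10 (edgeR adjusted p = 0.072). *Mgll*, which splits the lipid 2-arachidonoylglycerol into arachidonic acid and glycerol, was at 16.2 ± 1.89, 4.92 ± 2.21 and 6.67 ± 1.09 CPM, with log2 fold changes of -1.75 ± 0.35 in eutherian CRX (adjusted p = 0.13) and -1.28 ± 0.35 in metatherian CRX (adjusted p = 0.13). Both sets of CRX libraries were below control without overlap.

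*Ptgr1*, a reductase that acts on prostaglandins after the dehydrogenase, had means of 45.05 CPM in control, 54.2 in eutherian CRX and 63.1 in metatherian CRX. Its log2 fold change in metatherian CRX was 0.47 ± 0.10 (edgeR adjusted p = 0.096). *Tbxa2r*, the thromboxane receptor, was at 5.40 ± 4.39, 0.702 ± 0.392 and 0.625 ± 0.168 CPM, with log2 fold changes of -2.84 ± 0.73 and -2.99 ± 0.73 in eutherian and metatherian CRX (adjusted p = 0.26 and 0.115). *Pla2g15*, a lysosomal phospholipase, and *Prxl2b*, a prostaglandin F synthase listed under its older name *Fam213b*, gave -0.26 ± 0.09 and -0.36 ± 0.14 in metatherian CRX (adjusted p = 0.20 and 0.225). Among the other prostaglandin receptors, *Ptger1* (EP1) was at 39.3, 36.1 and 31.2 CPM. *Ptgir*, the prostacyclin receptor, was at 4.86 ± 2.90, 6.06 ± 7.18 and 6.48 ± 2.97 CPM and was not tested. The mean of each of *Ptger2*, *Ptger3*, *Ptgdr* and *Ptgdr2* was under 1 CPM in every condition. The prostaglandin D synthases *Ptgds* and *Hpgds* and thromboxane synthase *Tbxas1* were likewise under 1 CPM.

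**Figure D5:**
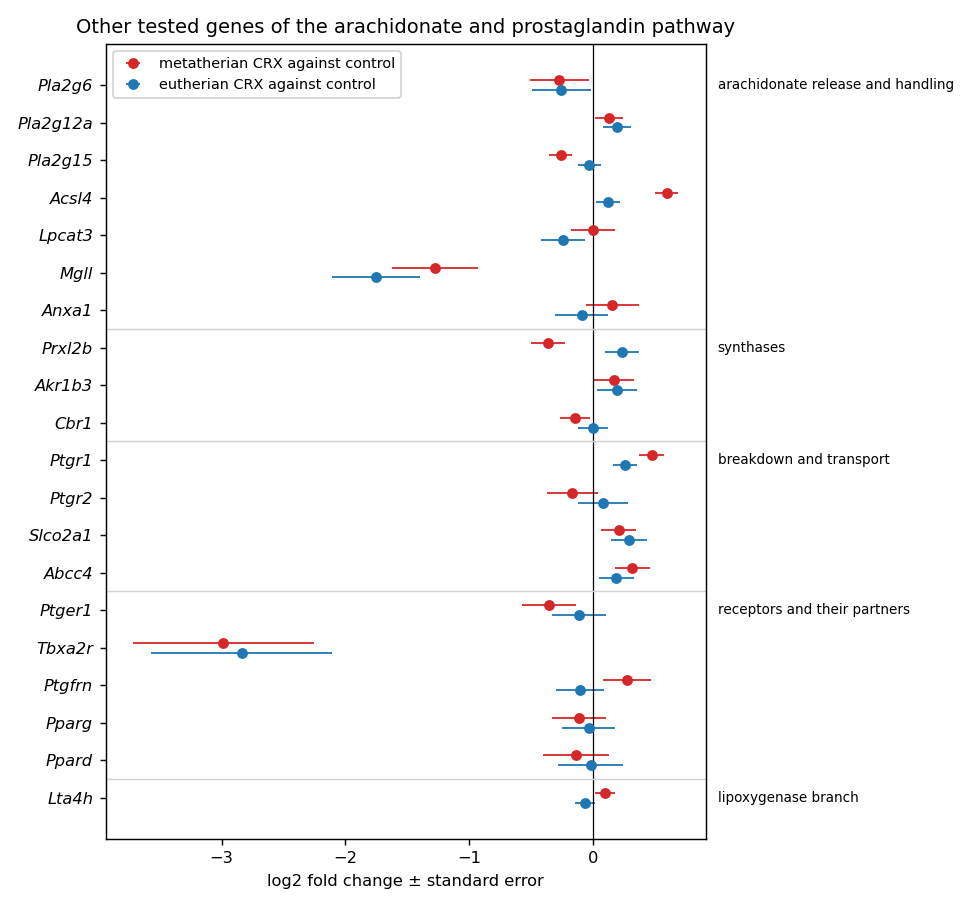
Log2 fold changes ± SE (x axis) of the 20 other tested genes of the pathway in both comparisons with control, which share the control libraries. *Mgll* and *Tbxa2r*, which were over 2 FPKM in control alone, lie farthest below 0 and *Acsl4* in metatherian CRX farthest above it.

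COX-2 is controlled by inflammatory signals, by transcription factors of the C/EBP, NF-κB and AP-1 families, and by proteins that bind AU-rich elements of its messenger RNA. Of a list of 20 such genes, 16 could be tested. In metatherian CRX against control 4 were higher and 12 lower and 0 passed, where 0.0297% of all genes did. Past an unadjusted edgeR p of 0.05 were 1 higher and 5 lower, as were 9.04% and 10.5% of all genes. In eutherian CRX against control 6 were higher and 10 lower and 1 passed, where 0.604% of all genes did. There, 0 higher and 3 lower were past the unadjusted threshold, as were 2.23% and 6.34% of all genes. The gene that passed was *Zfp36l1*, which encodes a protein that promotes decay of AU-rich messenger RNAs. It was at 115 ± 18.9 CPM in control, 70.5 ± 9.50 in eutherian CRX and 64.4 ± 6.73 in metatherian CRX, with log2 fold changes of -0.70 ± 0.09 (edgeR adjusted p = 0.039) and -0.83 ± 0.09 (adjusted p = 0.069). Its call was lost in the edgeR fits that called 0 genes in eutherian CRX against control, namely those with no replicate block, with only the 6 libraries compared, and without any 1 library of control or eutherian CRX or without metatherian CRX replicate 1. Its relative *Zfp36* (tristetraprolin) gave -0.68 ± 0.16 and -0.63 ± 0.16 (adjusted p = 0.20 and 0.12), with both sets of CRX libraries below control. *Fos*, an AP-1 subunit, gave -0.90 ± 0.16 in eutherian CRX (adjusted p = 0.088) and -0.36 ± 0.16 in metatherian CRX (adjusted p = 0.28).

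*Tlr4*, the endotoxin receptor, was at 27.5 ± 4.89, 23.3 ± 5.66 and 42.9 ± 11.4 CPM in control, eutherian and metatherian CRX, and its log2 fold change was 0.63 ± 0.15 in metatherian CRX against control (edgeR adjusted p = 0.11). *Nfkb1*, an NF-κB subunit, gave -0.37 ± 0.10 there (adjusted p = 0.13), *Cebpd*, a C/EBP factor, -1.28 ± 0.46 (adjusted p = 0.20), and *Il1r1*, the interleukin-1 receptor, -0.80 ± 0.29 (adjusted p = 0.21). The cytokine genes *Il1a*, *Il1b* and *Tnf*, which induce COX-2, were under 1 CPM on average in every condition.

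The genes whose pattern over the 9 libraries was most like that of a cyclooxygenase were named by the root mean square difference of log2 CPM after each gene was centred on its mean, among the tested genes outside the set of 10. For *Ptgs2*, whose own log2 CPM had an SD of 0.68, they were *Nuak2* (0.20), *Nipal1* (0.20), *Cd44* (0.22), *Htr2a* (0.24) and *Plxna2* (0.25). *Cd44*, a cell surface receptor for hyaluronan, was at 551, 742 and 871 CPM in control, 572, 487 and 1119 CPM in eutherian CRX and 1313, 1268 and 1482 CPM in metatherian CRX. For *Ptgs1*, with an SD of 1.29, they were *Ank* (0.19), *Parvb* (0.19), *Tmcc3* (0.23), *Pla2g7* (0.24) and *Ndrg2* (0.27). *Pla2g7*, which encodes a secreted phospholipase that inactivates platelet-activating factor, was at 23.6, 27.5 and 134 CPM in control, 28.8, 24.2 and 245 CPM in eutherian CRX and 104, 140 and 236 CPM in metatherian CRX.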

How the data were processed

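The authors aligned paired reads of 75 bp with STAR to mm10 (GRCm38) and deposited raw counts per gene and library from featureCounts, without normalization or pooling. From these, CPM and FPKM were computed with TMM factors and merged exon lengths, respectively. Of 22068 genes, 14599 passed filterByExpr and 10100 of these reached an average FPKM over 2 in 1 or more conditions. All 9 libraries entered 1 fit in edgeR 4.0.16 (R 4.3.3) blocked by replicate number, since the authors describe paired preparation, and calls were made at a Benjamini-Hochberg adjusted p under 0.05. Alternatives used DESeq2 1.42.0 and limma 3.58.1. Log2 CPM used a prior count of 2. Where a count is 0, up to 3 counts remain possible by counting error alone. Depth was 54145701 to 94699657 counts per library, and replicates differed by more than counting noise. The script was tested on simulated counts that, unlike these libraries, held no difference between replicate numbers.

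All 10 members and, from both lists, up to 6 genes each past an unadjusted p of 0.05 against control with the smallest p, plus genes of a role described, were named. The members and lists were chosen with earlier results of these data known. Samples were grouped by title. The methods give recovery before selection and culture overnight after it, and the labels 48 h after selection.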

Additional observations from a re-analysis of the deposited data

How the results depend on the processing

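Counts of called members changed with the method and with the libraries used. Blocked by replicate number, 0, 1 and 0 members passed in metatherian CRX against control, eutherian CRX against control and metatherian against eutherian CRX (3, 61 and 0 of all genes), and with no replicate block 0, 0 and 0 (0, 0 and 0 of all genes), where *Ptger4* in eutherian CRX had an edgeR adjusted p of 0.29. Deviations of libraries with the same number correlated above 0.1 in 8 of 9 pairs (lowest 0.0034). Those of libraries with different numbers did so in 5 of 18 pairs (lowest -0.73, highest 0.72). Control replicate 1 correlated at 0.70 with eutherian CRX replicate 1 and at 0.72 with eutherian CRX replicate 2. The numbers were thus not shown to mark the pairs. DESeq2 called 3, 1 and 4 members (1004, 333 and 317 of all genes), limma voom with quality weights 6, 5 and 6 (4665, 1697 and 4883), and the fit of only the 6 libraries compared 2 (*Ptgs1* and *Hpgd*), 0 and 0 (398, 0 and 0). Without any filter 109 genes were called in eutherian CRX against control. An unadjusted p under 0.05 gave 4, 2 and 5 members (1969, 865 and 1165 genes).

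Leaving out 1 library, or all 3 of a number, gave 0 to 3, 0 to 2 and 0 to 6 called members, and 0 to 2221, 0 to 295 and 0 to 2258 called genes. The highest counts came without all libraries numbered 3, when *Pla2g4a*, *Ptgs1* and *Ptger4* were called in metatherian CRX against control, *Ptgis* and *Ptger4* in eutherian CRX against control, and *Pla2g4a*, *Ptgs1*, *Ptgs2*, *Ptgis*, *Hpgd* and *Ptger4* between the CRX conditions. Without eutherian CRX replicate 3 alone the counts were 3, 0 and 4 (893, 0 and 351 of all genes), and without metatherian CRX replicate 3 they were 2, 1 and 0 (497, 117 and 149). The cause was not tested.

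The signs of some fold changes turned. For eutherian CRX against control, *Pla2g4a* was 0.00040 with relative-log-expression factors, 0.0062 with upper-quartile scaling, 0.00038 with DESeq2, 0.014 with filterByExpr only and 0.019 without a filter, *Ptges3* was 0.0046 without a filter, and *Ptgs1* was -0.082 with voom. For metatherian CRX against control, *Ptges* was -0.020 with upper-quartile scaling and -0.16 with voom, *Ptges2* was -0.0041 with upper-quartile scaling and *Ptges3* was -0.049 with voom. With libraries left out, eutherian CRX against control ranged from -0.038 to 0.042 for *Pla2g4a*, -0.14 to 0.094 for *Ptges3*, -0.11 to 1.17 for *Hpgd*, -0.44 to 0.68 for *Ptgs1*, -0.91 to 0.10 for *Ptgs2* and -0.12 to 0.67 for *Ptges*. Metatherian CRX against control ranged from -0.31 to 0.25 for *Ptges*, -0.080 to 0.15 for *Ptges2* and -0.069 to 0.17 for *Ptges3*. Metatherian against eutherian CRX ranged from -0.58 to 0.044 for *Ptges*, -0.29 to 0.021 for *Ptges2*, -0.023 to 0.76 for *Ptgis* and -0.42 to 0.14 for *Ptgfr*. *Ptgs2* and *Ptges* in eutherian CRX against control, and *Ptgis* and *Ptges2* between the CRX conditions, turned only when all 3 libraries of a number were left out. *Ptgfr* was not over the filter, and so has no value, without control replicate 1, without all libraries numbered 1, and in the fit of only the 6 CRX libraries. Over the alternatives that gave a value for a member, 497 values kept their direction and side of the threshold, 44 came to pass it, 12 no longer passed and 40 changed sign.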
